A study of Rattus norvegicus with 4 samples.

Results

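Neutrophils with little S100a8 and S100a9 RNA and no interferon signature formed the most numerous of 3 neutrophil classes over 4 libraries of healing rat skin, and their genes are described here. The cells were chosen by measured UMI counts (unique molecular identifiers, which count captured RNA molecules). A barcode qualified with at least 500 UMIs, at least 250 genes and at most 20% mitochondrial UMIs. Krt5 and Krt14 together had to stay under 0.3% of UMIs, Col1a1, Col3a1 and Dcn together under 0.3%, and C1qa, C1qb and C1qc together under 3 UMIs. G0s2, Il1r2, S100a8 and S100a9 together had to reach 0.5% of UMIs while S100a8 and S100a9 stayed under 1%, with fewer than 2 UMIs over Ifit2, Ifit3 and Isg15. High-S100a neutrophils numbered 3593 and low-S100a neutrophils with the interferon signature 2987. The rule found 5064 of 36892 filtered barcodes, with 1594 and 598 in the injected and 1768 and 1104 in the uninjected libraries.

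The wounds were in the skin of rats (Rattus norvegicus) and were sampled on day 4, and single cells were captured in droplets. The 2 injected libraries came from wounds given purified migrasomes, membrane vesicles shed along the track of a moving cell, and the 2 uninjected libraries from wounds given nothing. The act of injection and the migrasomes cannot be told apart in this design. Strain, age and sex are not given in the labels. Nothing in the labels says that the libraries came from separate animals, so the p-values describe only how much these libraries vary, and that variation may be technical.

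Neutrophils are short-lived granulocytes that enter a wound early, and most of their granule proteins are made before they leave the bone marrow. S100a8 and S100a9 encode calprotectin, an abundant cytosolic protein of neutrophils. In tissue, neutrophils make cytokines and chemokines under the control of NF-kB, a transcription factor that induces its own inhibitors. Il23a encodes the p19 chain of IL-23, a cytokine that sustains lymphocytes making IL-17, and Ccl3 encodes a chemokine. G0s2 encodes an inhibitor of lipolysis and Il1r2 a decoy receptor for IL-1.

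The markers of the class stood far above their level in barcodes outside the neutrophil gate. Levels are in CPM, the usual rescaling of counts to a common library total, taken here over all UMIs of a class in a library. G0s2 had 19350 and 18056 CPM in injected and 13789 and 19635 CPM in uninjected low-S100a cells, and 77.9 to 146 CPM outside the gate. Il1r2 had 968 and 588 CPM in injected and 655 and 1043 CPM in uninjected cells, and 39.8 to 54.4 outside the gate. G0s2 and Il1r2 helped to choose the cells, so their levels are a description. Il23a and Ccl3, which the rule did not use, had 37.7 to 147 and 213 to 702 CPM outside the gate, and their levels in the class follow below. Clec4d, a lectin receptor of neutrophils, had 1995 and 1454 CPM in injected and 1297 and 1579 CPM in uninjected cells, against 23.9 to 52.6 outside the gate. Some classical neutrophil genes were scarce, among them Csf3r, the receptor of G-CSF, with 42.7 to 52.0 CPM, and Fpr1, a chemotactic receptor, with 0.423 to 1.30 CPM. Mpo, Prtn3 and Ctsg, whose products fill azurophil granules and are made in the bone marrow, were at 0 in each library.

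Markers of other cells were low. Epx, Prg2 and Prg3 of eosinophils and Fcer1a and Mcpt1 of mast cells were at 0 in each library. Csf1r, the growth factor receptor of macrophages, had 9.48 and 3.60 CPM in injected and 5.01 and 4.59 CPM in uninjected libraries. Of 16 macrophage and monocyte markers 14 were listed and 12 tested, and the list took 0.551% and 0.525% of UMIs in injected against 0.472% and 0.699% in uninjected libraries. Lyz2, which neutrophils also express, is on that list. T and NK cell markers took at most 0.00527% of UMIs in any library, B and plasma cell markers at most 0.000367%, and mast cell and basophil markers at most 0.00367%. A cell of the class had a median of 1352 and 1359.5 UMIs in injected against 1035 and 1368 in uninjected libraries, with medians of 406.5 and 391 against 396 and 407 genes. The libraries held 75823418 to 105605297 UMIs over all barcodes, and 3 barcodes of these cells were shared between pairs of libraries.

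Uninjected 1 stood apart from the other libraries, which touches most comparisons of the groups. The 11 listed keratinocyte markers took 0.112% and 0.220% of the class's UMIs in injected 1 and 2, against 0.797% and 0.182% in uninjected 1 and 2. Ribosomal protein genes took 0.999% and 1.49% in injected against 6.66% and 1.36% in uninjected libraries. If all keratinocyte or all fibroblast RNA in these cells was free RNA, its share of UMIs was at most 5.53% and 7.72% in injected and 31.2% and 6.53% in uninjected libraries. That bound was carried to each gene by its level in droplets of at most 50 UMIs, and is given below as the gene's largest free share. The part of free RNA in the results was not tested beyond these values.

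At the limits of the rule, the cells just inside and just outside were compared as a description. The 351 cells just inside the S100a limit (0.75% to 1%) had 4280 CPM of Il23a and 14346 CPM of Ccl3, averaged over the libraries, and the 291 cells just outside (1% to 1.25%) had 3379 and 15459 CPM. The 1247 cells with 1 UMI of the interferon trio had 3834 CPM of Il23a, and the 683 cells with 2 such UMIs had 2931 CPM. The averages hide differences between libraries. At the S100a limit Il23a had 4749 CPM inside and 2077 CPM outside in injected 1, 9253 and 8151 in injected 2, 1834 and 1881 in uninjected 1, and 1282 and 1409 in uninjected 2. At the interferon limit it was lower outside in each library. Cd74, the invariant chain of MHC class II, had 228 CPM in the 305 cells just inside the neutrophil limit (0.5% to 0.6%) and 1208 CPM in the 258 cells just outside (0.4% to 0.5%). By library its levels inside and outside were 393 and 2972 CPM in injected 1, 60.9 and 1432 in injected 2, 24.1 and 35.2 in uninjected 1, and 435 and 394 in uninjected 2, so the higher average outside came from the injected libraries. Within the class, cells with 3 or more UMIs over 5 MHC class II genes numbered 28 and 8 in injected and 11 and 12 in uninjected libraries. These 59 cells held 4.64% and 3.28% of the class's UMIs in injected and 1.98% and 3.13% in uninjected libraries.

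Low-S100a cells without interferon genes made up 44.2% and 56.0% of gated neutrophils in the injected libraries, against 46.5% and 34.9% in the uninjected libraries. The 95% Wilson intervals, which cover counting error only, were 42.6% to 45.8% and 53.1% to 59.0% in injected and 44.9% to 48.1% and 33.2% to 36.6% in uninjected libraries. The groups overlapped at these limits. The means were 50.1 ± 8.40% in injected and 40.7 ± 8.21% in uninjected libraries (SD, n = 2 each), a difference of 9.42 percentage points (exact two-sided permutation p = 0.667, where 0.333 is the smallest p that 2 against 2 allow). Under 3 alternatives the groups did not overlap. The shares were 44.7% and 54.0% in injected against 42.5% and 35.2% in uninjected libraries with cells thinned to 500 UMIs, 42.2% and 54.4% in injected against 41.4% and 33.0% in uninjected libraries with at least 1000 UMIs per cell, and 39.4% and 47.8% in injected against 36.1% and 27.6% in uninjected libraries with the S100a limit at 0.5% (exact two-sided permutation p = 0.333 for each). For these shares the thinned setting also allowed no UMI of the interferon trio or of the C1q genes, so limits changed along with depth. With the interferon limit at 0.1% the groups overlapped (p = 0.667, exact permutation). Of all filtered barcodes the class was 14.7% and 9.09% in injected against 17.8% and 11.6% in uninjected libraries, a difference of -2.82 percentage points (exact two-sided permutation p = 0.667) that turned to 0.309 without uninjected 1. High-S100a cells were 15.9% and 21.7% of gated neutrophils in injected against 48.6% and 29.7% in uninjected libraries, and the interferon class was 39.9% and 22.2% against 4.94% and 35.5%. Cells without any S100a8 or S100a9 UMI were 57.6% and 50.2% of the class in injected and 26.0% and 38.0% in uninjected libraries, a value that the limit on these genes helped to set.

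**Figure D1:**
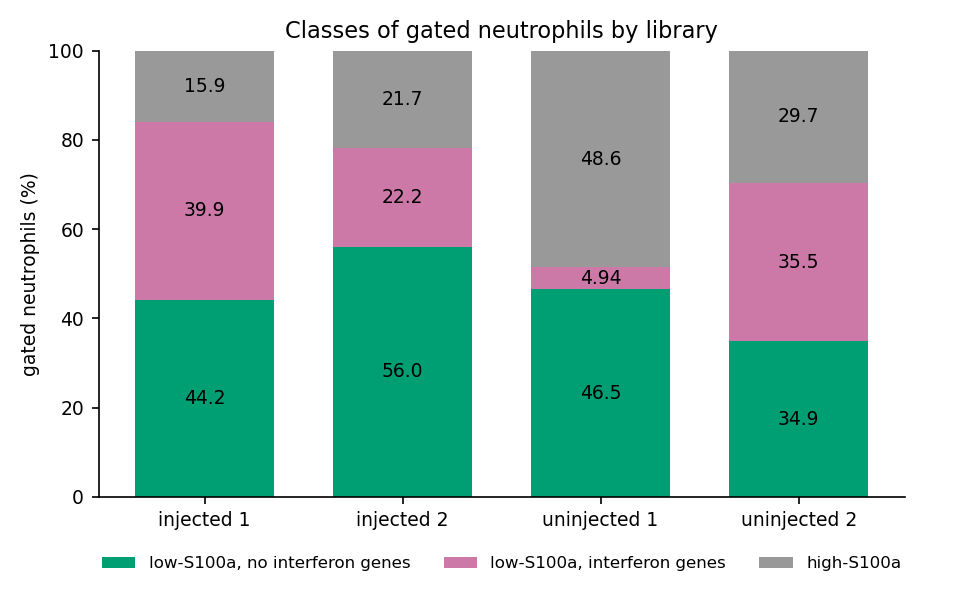
Share of gated neutrophils (vertical axis, %) in each library, stacked as low-S100a cells without interferon genes (bottom), low-S100a cells with interferon genes (middle) and high-S100a cells (top). The bottom part is 44.2% and 56.0% in the injected libraries and 46.5% and 34.9% in the uninjected libraries, so the groups overlap at these limits, though not under 3 of the 4 other settings of depth or limits tried.

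Against high-S100a neutrophils of the same library, low-S100a cells had more RNA of several cytokines and surface proteins and less of granule genes. The rule divides these classes, so this is a description with no test. Of 1862 genes with a mean of 50 CPM or more in either class, 12 (0.644%) were higher by 1 log2 unit or more in all 4 libraries and 19 (1.02%) were lower by as much. Log2 ratios are of CPM + 1, and means are over the 4 libraries. Cd14, a co-receptor for bacterial lipopolysaccharide, averaged 168 CPM in low-S100a and 13.2 CPM in high-S100a cells, with log2 ratios of 3.98 and 3.63 in injected and 1.37 and 2.96 in uninjected libraries. Ccl20, a chemokine for Ccr6-bearing lymphocytes, had a mean log2 ratio of 1.81, and Ccl4, a close relative of Ccl3, 1.41. Ebi3, a chain of the cytokines IL-27 and IL-35, averaged 382 CPM in low-S100a and 136 CPM in high-S100a cells. Vcan, a proteoglycan of myeloid cells and matrix, had 2.06, Spp1, which encodes osteopontin, 2.12, S100a4 1.93, and Arl5c, a small GTPase, 1.82. Emp1, a membrane protein, and Urgcp had 1.25 and 1.22. Cd74 and RT1-Db1, both of MHC class II, had 2.24 and 1.85, but 0.06 and 0.29 once cells with MHC class II UMIs were left out of both classes. Cd14 and Vcan then had 2.52 and 1.89.

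The genes lower in low-S100a cells were led by Mmp8, a collagenase stored in granules, with a mean of 61.1 CPM in low-S100a and 565 CPM in high-S100a cells (log2 ratio -3.13). Retnlg, a secreted protein of rodent neutrophils, had a log2 ratio of -2.89, and Pglyrp1, a granule protein that binds bacterial peptidoglycan, -2.52. Tf, which encodes the iron carrier transferrin, had -2.07, and Alox5ap, needed for leukotriene synthesis, -1.85. The interferon-induced genes Oas1a, Irf7 and Samd9 had -2.62, -2.30 and -1.63, where high-S100a cells had no limit on the interferon trio. Gng10, Pcmt1 and Ftsj1 were also among the 12 lowest, with -1.81, -1.55 and -1.98.

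**Figure D2:**
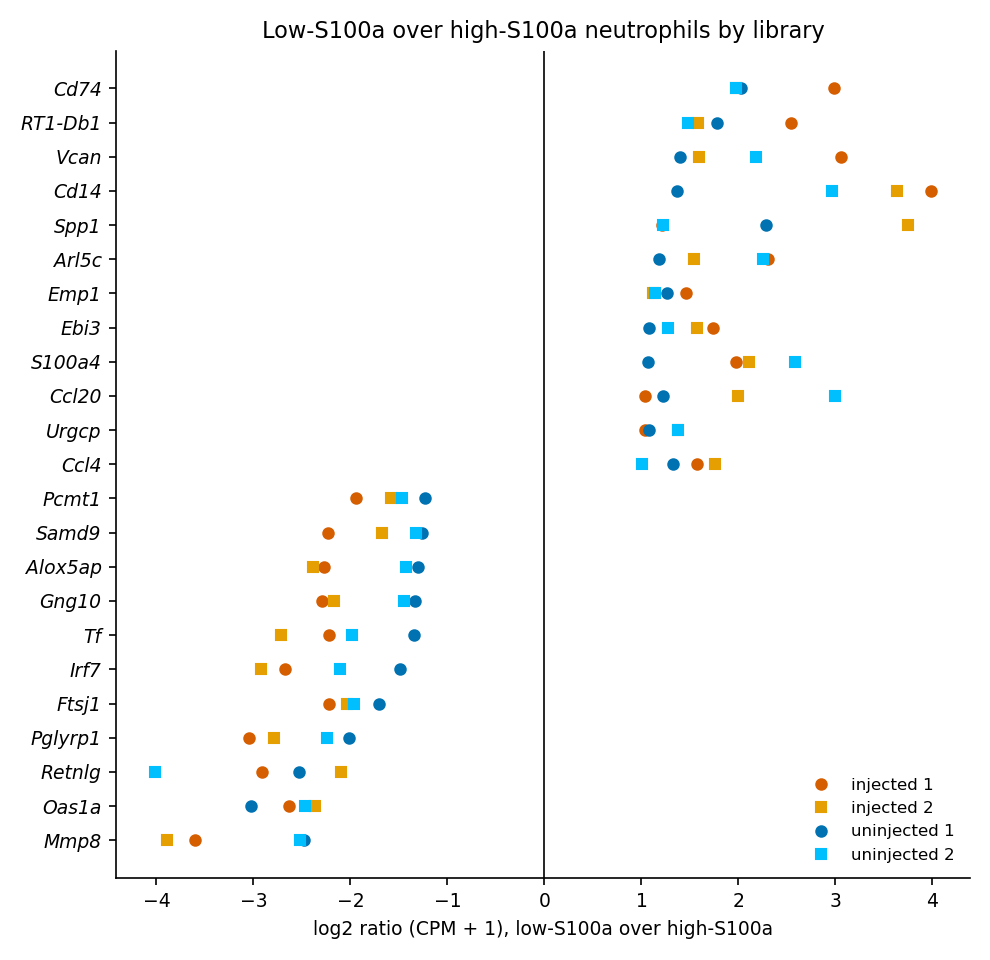
Log2 ratio of CPM + 1 in low-S100a over high-S100a neutrophils (horizontal axis) for the 12 genes highest and 11 of the 12 lowest by their weakest library, 1 point per library. The choice of genes puts all 4 points on the same side of 0, and Cd14 runs from 1.37 in uninjected 1 to 3.98 in injected 1.

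Of the 4 markers, Il23a differed most between the class and the other neutrophils. Its log2 ratio over high-S100a cells was 1.97 and 1.04 in injected and 0.84 and 1.69 in uninjected libraries, and over the interferon class 0.86 and 1.19 in injected and 1.47 and 1.60 in uninjected libraries. Ccl3 had 0.95 and 0.64 over high-S100a cells in injected and 0.62 and 0.71 in uninjected libraries. G0s2 and Il1r2 count toward the rule's 0.5% limit, which high-S100a cells already meet by S100a8 and S100a9 alone. The limit thus acts on G0s2 and Il1r2 in low-S100a cells only, and their ratios are a description. G0s2 had 0.18 and 0.23 in injected and 0.42 and 0.36 in uninjected libraries, and Il1r2 -0.57 and -0.51 in injected and -0.21 and -0.40 in uninjected libraries. Against the interferon class, 0 of 1903 genes (0%) were higher by 1 log2 unit or more in all 4 libraries and 9 (0.473%) were lower by as much. The 5 lowest by their weakest library had mean log2 ratios as follows, Igtp (-2.82), Irf7 (-2.58), Samd9 (-2.19), RT1-S3 (-2.13) and Herc6 (-1.97), most of them interferon-induced, and the rule excludes cells with such a signature. They were named after their values were seen.

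Il23a RNA was unevenly spread over the cells. With each cell thinned to 500 UMIs, 49.1% and 68.6% of cells had an Il23a UMI in injected libraries, against 41.7% and 24.5% in uninjected libraries. Without thinning the shares were 57.4% and 73.6% in injected and 49.9% and 30.6% in uninjected libraries. In keratinocytes, given for comparison, the thinned shares were 1.84% and 2.09% in injected and 0.741% and 0.937% in uninjected libraries. Their median depths before thinning were 19678 and 19576 UMIs in injected and 16373.5 and 24801 UMIs in uninjected libraries. The 90th percentile of thinned cells was 8 and 13 Il23a UMIs in injected and 6 and 4 in uninjected libraries. Ccl3 was nearer to general, with a UMI in 90.2% and 91.1% of thinned cells in injected and 76.5% and 77.2% in uninjected libraries, and in 3.68% and 1.69% of keratinocytes in injected and 1.48% and 1.34% in uninjected libraries. Il12b encodes p40, the chain that pairs with p19 to form IL-23, and was named after its values were seen. It had 1 and 0 UMIs in the class in injected and 0 and 0 in uninjected libraries.

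Cells with an Il23a UMI after thinning numbered 783 and 410 in injected and 738 and 270 in uninjected libraries, and cells without one 811 and 188 in injected and 1030 and 834 in uninjected libraries. Of 1583 genes compared at this equal depth, 17 (1.07%) were higher by 1 log2 unit or more in cells with Il23a in all 4 libraries, and 3 (0.19%) were lower by as much. Cells of a library are not replicates, and these ratios are a description. Cxcl1, a chemokine that attracts neutrophils, had log2 ratios of 1.48 and 1.45 in injected and 1.40 and 2.04 in uninjected libraries. Ccrl2, which binds the attractant chemerin without signalling, had 1.44 and 1.69 in injected and 1.54 and 1.78 in uninjected libraries. Clcf1, a cytokine of the IL-6 family, had a mean of 1.76, and Tnfaip2, a gene induced by tumour necrosis factor, 1.66. Tnf itself had 2.26 on 70 UMIs in cells with Il23a, and Ccdc12 had 2.50 on 112 UMIs. Ly75, an endocytic lectin receptor, had 1.98, and Cd302, another lectin receptor, 1.68. Ly75 and Cd302 are neighbours in the RefSeq annotation of GRCr8, so how reads were split between them is uncertain. Arl5c had 1.54, and LOC691143, which has no gene name in the files, 2.52. Other genes were looked at after their values were seen. Il1b had 1.10, Ccl3 0.68, and the lectin gene Clec4d 0.06. Nqo1, an enzyme of the oxidative stress response, had -1.35, Cxcr4, the receptor for Cxcl12, -1.31, and Hmox1, which breaks down haem, -1.02.

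**Figure D3:**
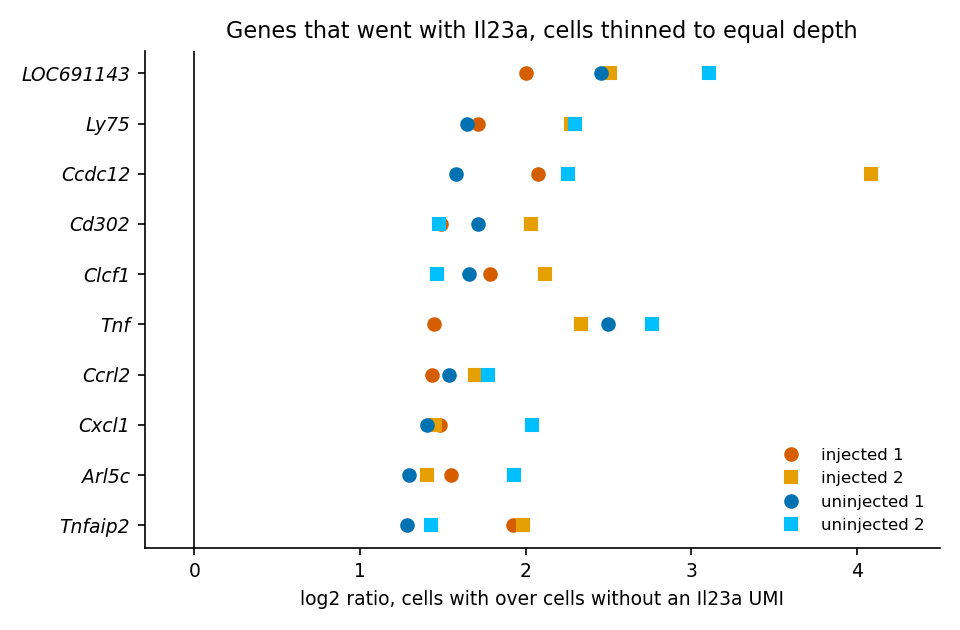
Log2 ratio between low-S100a neutrophils with and without an Il23a UMI, all thinned to 500 UMIs (horizontal axis), for the 10 genes of highest ratio in their weakest library, 1 point per library. Cxcl1 and Ccrl2 lie between 1.40 and 2.04 in each library, and the Ccdc12 point of injected 2, at 4.08, rests on 18 UMIs against 0.

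Promoters of Il23a and of the 10 genes that went with it were searched for the kappa B consensus, the sequence that NF-kB binds, because several of these genes are known targets of that factor in other mammals. The search covered both strands of the 250 bases before each gene's start, from RefSeq on build GRCr8. Of the 11 genes 8 had an entry, and 3 of those (37.5%) held a match, against 3.82% of all 27457 symbols in the table. The window of Il23a is chr7:1308435-1308684, of Cxcl1 chr14:17479322-17479571, of Arl5c chr10:83488293-83488542 and of Ly75 chr3:65260879-65261128, each shown 5′ to 3′ on the minus strand, which is the gene's own, with matches in capitals. They are shown because Il23a marks the class and the other 3 held the matches.
Il23a: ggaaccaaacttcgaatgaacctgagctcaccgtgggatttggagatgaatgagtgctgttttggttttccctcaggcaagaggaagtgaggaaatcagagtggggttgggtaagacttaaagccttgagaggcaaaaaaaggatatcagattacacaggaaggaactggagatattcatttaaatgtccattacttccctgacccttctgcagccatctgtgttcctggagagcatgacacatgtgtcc
Cxcl1: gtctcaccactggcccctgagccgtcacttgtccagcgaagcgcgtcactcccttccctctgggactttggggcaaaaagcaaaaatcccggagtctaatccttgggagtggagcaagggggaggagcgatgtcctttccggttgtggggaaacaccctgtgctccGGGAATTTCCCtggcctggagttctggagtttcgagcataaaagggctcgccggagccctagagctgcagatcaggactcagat
Arl5c: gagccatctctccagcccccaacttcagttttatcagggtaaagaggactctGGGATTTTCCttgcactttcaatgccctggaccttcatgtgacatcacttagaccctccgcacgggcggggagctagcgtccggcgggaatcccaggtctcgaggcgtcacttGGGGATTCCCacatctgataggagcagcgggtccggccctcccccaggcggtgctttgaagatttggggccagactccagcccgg
Ly75: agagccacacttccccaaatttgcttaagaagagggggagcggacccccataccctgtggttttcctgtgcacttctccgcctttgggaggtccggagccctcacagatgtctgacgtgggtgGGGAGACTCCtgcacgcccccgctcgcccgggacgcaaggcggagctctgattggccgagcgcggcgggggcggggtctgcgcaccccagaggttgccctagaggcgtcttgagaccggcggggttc

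The match of Ly75 began 127 bases before the start, the overlapping matches of Cxcl1 84 and 83 bases before it, and those of Arl5c 198 and 85 bases before it, the nearer one reading on both strands. The window of Il23a had no match, which says only that these letters are not in it. Of the 24 genes of the NF-kB list below, 21 had an entry and 8 (38.1%) held a match. A match is a description of sequence, not a site of binding.

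Injected and uninjected wounds were compared on UMIs summed over the class, 1 sum per library. With edgeR's quasi-likelihood test 0 of 6852 genes (0%) passed an adjusted p of 0.05 (smallest adjusted p = 0.624), and 547 (7.98%) had an unadjusted p under 0.05. DESeq2's Wald test was run on a larger set, the 15838 genes with a UMI in the class. Some of these, Casp4 and Tlr7 among them, got no adjusted p, so the adjustment covered fewer genes. The Wald test called 34 genes, 12 higher and 22 lower in injected libraries, and 470 had an unadjusted p under 0.05. Of the 6852 genes tested with edgeR, 3132 were higher and 3720 lower in injected libraries. Both injected libraries were above both uninjected libraries for 1269 genes (18.5%) and below them for 1368 (20%). Without uninjected 1, edgeR called 89 genes higher (1.35%) and 84 lower (1.28%) of 6587, with uninjected 2 alone in its group and assumed to vary like the injected pair. Without injected 2 it called 4, and without injected 1 or uninjected 2 it called 0. Values below are CPM on library sizes scaled by edgeR's TMM method, and log2 fold changes are injected over uninjected. None of the genes named passed the edgeR test with all 4 libraries.

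Il23a had 5476 and 9158 CPM in injected and 2401 and 2273 CPM in uninjected libraries. Both injected values were above both uninjected values. The log2 fold change was 1.65 (SE 0.48, edgeR adjusted p = 0.624), and ran from 1.33 to 2.00 with 1 library left out. Its largest free share was 2.95%. Ccl3 had 30426 and 28547 CPM in injected and 10009.6 and 19712 CPM in uninjected libraries (log2 fold change 0.99, SE 0.55). These groups did not overlap either. G0s2 had 21697 and 19222 CPM in injected and 11407 and 21032 CPM in uninjected libraries, and Il1r2 1085 and 626 CPM in injected and 542 and 1117 CPM in uninjected libraries. Both overlapped between the groups, with log2 fold changes of 0.34 and 0.05 that came to -0.02 and -0.36 without uninjected 1.

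**Figure D4:**
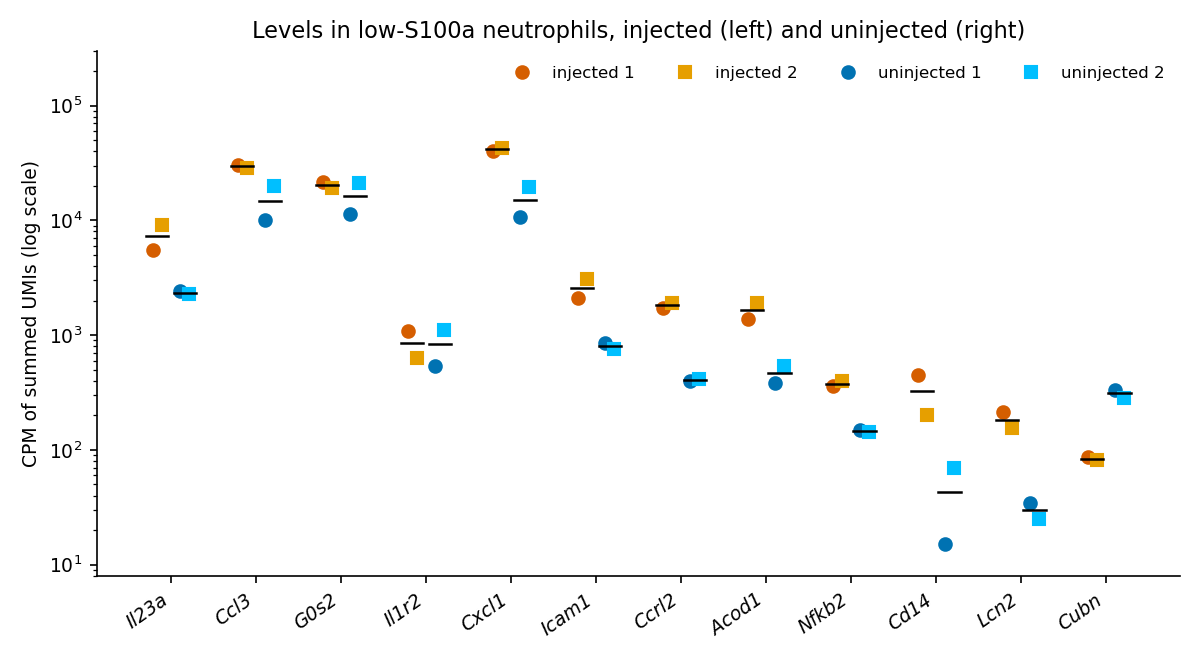
CPM of summed UMIs in low-S100a neutrophils (vertical axis, log scale) for 12 genes, with the injected libraries left and the uninjected libraries right at each gene. Points are libraries and lines are group means. Both injected points lie above both uninjected points for 9 genes, G0s2 and Il1r2 overlap, and Cubn is lower in both injected libraries. The class markers aside, the genes were named for low p or large fold change between these groups, which favours separation. Of all tested genes 18.5% had both injected libraries above.

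Of 28 tested cytokine and chemokine genes 20 were higher and 8 lower in injected libraries, with a median log2 fold change of 0.39 against -0.06 over all tested genes, and 0 passed the test. Injected libraries were above without overlap for 13 (46.4%, against 18.5% of all tested genes) and below for 3 (10.7%, against 20%). The list took 23.5% and 24.9% of UMIs in injected and 15.0% and 20.2% in uninjected libraries. In high-S100a cells it took 14.8% and 17.5% in injected and 12.0% and 14.0% in uninjected libraries. Cxcl1 had 40115 and 42733 CPM in injected and 10779.7 and 19425 CPM in uninjected libraries (1.46, SE 0.55). Ccl7, a monocyte chemokine, had 251 and 187 CPM in injected and 62.9 and 85.9 CPM in uninjected libraries, with a largest free share of 88.4%. Ereg, a growth factor of the EGF family, had 85.4 and 45.6 CPM in injected and 30.0 and 19.0 CPM in uninjected libraries and a largest free share of 71.9%. Its log2 fold change was 1.42, 0.46 without possible doublets and 0.84 with cells thinned, and 0.92 to 1.90 with 1 library left out. That of Ccl7 was 1.56, 0.94 without possible doublets and 0.92 thinned. Cxcl2 and Il1b are named for their abundance, after it was seen. Cxcl2, another neutrophil attractant, had 98861 and 106749 CPM in injected and 58328 and 101363 CPM in uninjected libraries, and Il1b, a central inflammatory cytokine, 19429.8 and 24188 CPM in injected and 8731 and 16714 CPM in uninjected libraries.

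All 24 genes of the NF-kB feedback and survival list were higher in injected libraries, with a median log2 fold change of 0.87. Of these, 21 (87.5%) were above without overlap, against 18.5% of all tested genes, and 0 passed the test. The list took 5.95% and 6.56% of UMIs in injected and 3.50% and 4.25% in uninjected libraries. In high-S100a cells it took 5.09% and 5.61% in injected and 3.46% and 3.57% in uninjected libraries, a difference in the same direction. Icam1, an adhesion molecule that binds leukocyte integrins, had 2097 and 3086 CPM in injected and 857 and 749.5 CPM in uninjected libraries (1.69, SE 0.44). With 1 library left out its log2 fold change ran from 1.49 to 1.97. Nfkb2, a subunit of the factor, had 358 and 394 CPM in injected and 148 and 144 CPM in uninjected libraries. Nfkbib, an inhibitor that holds the factor in the cytosol, had 223 and 234 CPM in injected and 66.9 and 112 CPM in uninjected libraries, and Nfkbie, another such inhibitor, 32.2 and 22.8 CPM in injected and 11.1 and 11.1 CPM in uninjected libraries. The 4 were named for the largest fold changes of the list, which favours separation, and none overlapped between groups. Their largest free shares ran from 10.2% to 28.9%.

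Of 26 tested receptor genes 23 were higher and 3 lower, with a median of 0.38. Injected libraries were above without overlap for 11 (42.3%, against 18.5% of all tested genes). Ccrl2 had 1738 and 1902 CPM in injected and 394 and 411 CPM in uninjected libraries (2.18, SE 0.41) and a largest free share of 3.05%. Cd14 had 448 and 202 CPM in injected and 15.0 and 70.2 CPM in uninjected libraries (2.95, SE 0.80), with a largest free share of 48.6%. Its fold change came to 2.26 without injected 1, 3.48 without injected 2, 2.24 without uninjected 1 and 4.55 without uninjected 2, and to 2.27 without possible doublets. Tlr2, a sensor of bacterial lipoproteins, had 538 and 432 CPM in injected and 104 and 273 CPM in uninjected libraries, and Ptafr, the receptor of platelet-activating factor, 224 and 159 CPM in injected and 69.4 and 119 CPM in uninjected libraries. All 4 were higher without overlap, but they were named for the largest fold changes of the list, which favours this.

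The NADPH oxidase makes the oxygen radicals with which neutrophils kill microbes. All 5 tested genes of it were higher in injected libraries (median 0.70), 4 without overlap (80%, against 18.5% of all tested genes). Ncf1, its cytosolic organizer, had 231 and 154 CPM in injected and 91.9 and 66.9 CPM in uninjected libraries, and Cybb, the catalytic subunit, 69.7 and 40.8 CPM in injected and 26.8 and 36.7 CPM in uninjected libraries. Rac2, the GTPase that activates it, had 76.8 and 61.3 CPM in injected and 40.1 and 45.2 CPM in uninjected libraries, and Cyba, the membrane partner of Cybb, 118 and 150.2 CPM in injected and 85.8 and 103 CPM in uninjected libraries. Granule genes were mixed, with 7 of 11 tested genes of specific and gelatinase granules higher and 4 lower. Lcn2, which withholds iron from bacteria and is also made by keratinocytes, had 212 and 154 CPM in injected and 34.3 and 24.9 CPM in uninjected libraries (2.62, SE 0.42). Its free share was at most 29.1% and 33.3% in injected and 50.8% and 21.5% in uninjected libraries. Mmp9, gelatinase B, had 574 and 475 CPM in injected and 335 and 227 CPM in uninjected libraries. Hp, haptoglobin, had 128 and 114 CPM in injected and 65.8 and 116 CPM in uninjected libraries, and Chi3l1, a chitinase-like protein, 389.8 and 287 CPM in injected and 139 and 379.7 CPM in uninjected libraries, both with overlapping groups. Of 4 tested azurophil granule genes 4 were higher, with a median of 0.22 and none without overlap.

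Of 28 tested genes of hypoxia and glycolysis 22 were higher and 6 lower, with a median of 0.59. Without overlap 17 (60.7%) were above and 3 (10.7%) below, against 18.5% and 20% of all tested genes. Bnip3, which marks mitochondria for removal under low oxygen, had 209 and 211 CPM in injected and 50.8 and 76.1 CPM in uninjected libraries (1.73, SE 0.40). Pfkl, a glycolytic enzyme, had 107 and 76.9 CPM in injected and 22.2 and 47.2 CPM in uninjected libraries. Ankrd37, induced by low oxygen, had 9.48 and 7.21 CPM in injected and 1.43 and 3.93 CPM in uninjected libraries with a largest free share of 100%. Hilpda, a lipid droplet protein, had 28.5 and 16.8 CPM in injected and 86.6 and 23.6 CPM in uninjected libraries, so that its lower mean rested on uninjected 1. Interferon-induced genes outside the rule were higher for 21 and lower for 5 of 26, with a median of 0.61, in cells whose interferon RNA the rule caps. Without overlap 10 (38.5%) were above and 3 (11.5%) below. Gbp2, a GTPase of this group, had 74.9 and 73.3 CPM in injected and 13.6 and 19.7 CPM in uninjected libraries. Cxcl10, a lymphocyte chemokine, had 120.0 and 97.3 CPM in injected and 59.0 and 26.2 CPM in uninjected libraries, Ifi47, another GTPase, 10.4 and 6.01 CPM in injected and 1.79 and 2.62 CPM in uninjected libraries, and Oas1a, a sensor of double-stranded RNA, 39.4 and 46.9 CPM in injected and 0.358 and 36.1 CPM in uninjected libraries. The largest free shares of these 4 ran from 50.4% to 100%.

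**Figure D5:**
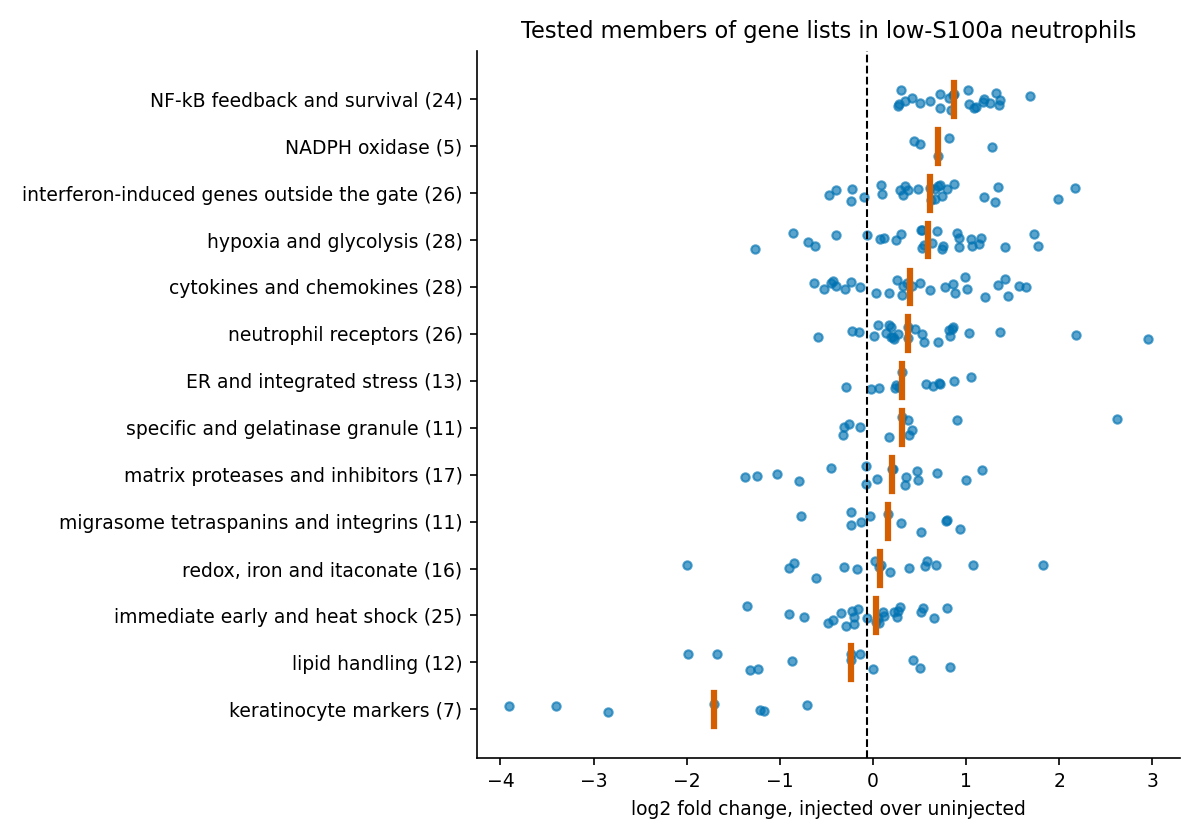
Log2 fold change, injected over uninjected (horizontal axis), of each tested member of 14 gene lists in low-S100a neutrophils, with the number tested in brackets. Points are genes, orange ticks list medians and the dashed line the median of all tested genes (-0.06). The 24 genes of the NF-kB list all lie above 0 and the 7 keratinocyte genes all below it.

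The redox, iron and itaconate list was divided, with 10 of 16 higher and 6 lower. Acod1, which makes the antimicrobial metabolite itaconate, had 1379 and 1918 CPM in injected and 386 and 540.4 CPM in uninjected libraries (1.83, SE 0.44), with a largest free share of 2.60%. Slc7a2, a transporter of arginine, had 513 and 437 CPM in injected and 259 and 193 CPM in uninjected libraries. Hmox1 had 3774 and 1438 CPM in injected and 5491 and 4218 CPM in uninjected libraries (-0.90, SE 0.57). Txn1, which encodes thioredoxin, had 246 and 185 CPM in injected and 1474 and 249 CPM in uninjected libraries, where uninjected 1 stood alone. Lipid genes were lower for 9 and higher for 3 of 12, with a median of -0.24. The list's share of UMIs overlapped between the groups and was on average higher with injection, at 0.837% and 0.610% in injected and 0.526% and 0.640% in uninjected libraries. Abca1, which exports cholesterol, had 73.5 and 14.4 CPM in injected and 178 and 182 CPM in uninjected libraries (-1.99, SE 0.69), with a log2 fold change of -4.42 without possible doublets and -3.70 thinned. Sqle, an enzyme of sterol synthesis, had 6.16 and 3.60 CPM in injected and 19.3 and 13.8 CPM in uninjected libraries, Hmgcs1, another, 41.7 and 37.2 CPM in injected and 142 and 43.3 CPM in uninjected libraries, and Fabp5, a fatty acid carrier also known from keratinocytes, 282 and 363 CPM in injected and 1306 and 306 CPM in uninjected libraries.

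Among the remaining lists, of 13 genes of ER and integrated stress 11 were higher (median 0.32), and 3 (23.1%) were above without overlap. Ppp1r15a of that list, which restores protein synthesis after stress, had 1379 and 1499 CPM in injected and 656 and 727 CPM in uninjected libraries. Ptger2, a receptor of prostaglandin E2, had 221 and 159 CPM in injected and 37.2 and 91.8 CPM in uninjected libraries, and Lta4h, an enzyme of leukotriene B4 synthesis, 66.9 and 61.3 CPM in injected and 103 and 134 CPM in uninjected libraries. Cd274, the checkpoint ligand PD-L1, had 1661 and 1693 CPM in injected and 655 and 1004 CPM in uninjected libraries, without overlap. Tetraspanins, integrins and enzymes known from migrasomes were higher for 6 and lower for 5 of 11 (median 0.16). The tetraspanin Cd37 had 49.8 and 36.0 CPM in injected and 15.0 and 30.8 CPM in uninjected libraries, and Cd82, another, 173 and 148 CPM in injected and 85.8 and 100.3 CPM in uninjected libraries. The integrin subunit Itga5 had 41.7 and 32.4 CPM in injected and 28.6 and 13.8 CPM in uninjected libraries, and Pigk, an enzyme of lipid anchors, 6.64 and 7.21 CPM in injected and 12.9 and 10.5 CPM in uninjected libraries. Neutrophil markers outside the rule were higher for 13 of 13 (median 0.31), but only 2 (15.4%) were above without overlap. MHC class II genes were higher for 7 of 7 (0.20), 1 of them (14.3%) without overlap. Of all tested genes 18.5% were above without overlap. Immediate early and heat shock genes were higher for 13 and lower for 12 of 25 (median 0.03), matrix proteases and inhibitors for 10 and 7 of 17 (0.20), and apoptosis genes for 10 and 3 of 13 (0.17). All 7 tested keratinocyte markers were lower (median -1.71), as were 70 of 77 ribosomal protein genes (median -1.37), and both were most abundant in uninjected 1.

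Among the 10 higher genes of lowest unadjusted p were Lcn2, Ccrl2 and Gbp2. Lilrb2, an inhibitory receptor for MHC class I, had 109.5 and 90.1 CPM in injected and 6.08 and 15.7 CPM in uninjected libraries (3.24, SE 0.55), with a largest free share of 2.35%. Casp4, a caspase that senses lipopolysaccharide in the cytosol, had 67.8 and 38.4 CPM in injected and 6.80 and 13.1 CPM in uninjected libraries, and Tlr7, a sensor of single-stranded RNA, 33.7 and 20.4 CPM in injected and 3.93 and 6.56 CPM in uninjected libraries. Snx11, a sorting nexin, had 68.3 and 78.1 CPM in injected and 17.2 and 19.7 CPM in uninjected libraries, Slc2a6, of the glucose transporter family, 58.3 and 73.3 CPM in injected and 19.7 and 19.0 CPM in uninjected libraries, and Adprm 104 and 87.7 CPM in injected and 26.5 and 32.1 CPM in uninjected libraries. Olr1463, an olfactory receptor by name, had 47 and 7 UMIs in injected and 1 and 0 UMIs in uninjected libraries. The groups of these genes did not overlap, which the choice by low p favours.

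Of the 10 lower genes of lowest unadjusted p, Cubn had the smallest free share, at most 3.64%. Cubn, an endocytic receptor best known from kidney and gut, had 85.8 and 81.7 CPM in injected and 334 and 285 CPM in uninjected libraries (-1.89, SE 0.38). Mmp13, a collagenase, had 46.0 and 52.9 CPM in injected and 216 and 148 CPM in uninjected libraries with a largest free share of 100%. Its log2 fold change was -1.88, and -0.99 without possible doublets. Rab21, an endosomal GTPase, had 46.5 and 49.3 CPM in injected and 126 and 219 CPM in uninjected libraries, and Atp13a4, of the P-type ATPases, 5.22 and 4.81 CPM in injected and 51.1 and 38.7 CPM in uninjected libraries. Ube2m, which conjugates the ubiquitin-like protein Nedd8, had 13.8 and 12.0 CPM in injected and 62.9 and 93.1 CPM in uninjected libraries. Cdc34, which conjugates ubiquitin, had 3.79 and 8.41 CPM in injected and 27.9 and 27.5 CPM in uninjected libraries, and Cdk2ap1 3.32 and 7.21 CPM in injected and 37.2 and 21.6 CPM in uninjected libraries. The largest free shares of the genes other than Cubn ran from 43.4% to 100%. Low counts stood behind the others. Adcy10, a soluble adenylyl cyclase, had 1 and 3 UMIs in injected and 64 and 62 UMIs in uninjected libraries, the protease inhibitor Serpinb8 2 and 1 UMIs in injected and 51 and 13 UMIs in uninjected libraries, and Rnaseh2c, a subunit of ribonuclease H2, 0 and 0 UMIs in injected and 22 and 9 UMIs in uninjected libraries.

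Whether the difference between injected and uninjected wounds itself differed between low-S100a and high-S100a cells was tested as an interaction, with the library as a block. With edgeR's quasi-likelihood test 0 of 6979 genes (0%) passed, and 417 (5.98%) had an unadjusted p under 0.05. For the 5 genes described here, all among the 6 of lowest p, the fold change was the more positive one in low-S100a cells. Ptgs2, the inducible enzyme of prostaglandin synthesis, had 1645 and 1683 CPM in injected and 1101 and 1688 CPM in uninjected low-S100a cells, and 875 and 935 CPM in injected and 1335 and 1606 CPM in uninjected high-S100a cells. Its interaction was 0.98 on the log2 scale (SE 0.17, edgeR adjusted p = 0.132). Ero1a, an enzyme of protein folding, had 525 and 245 CPM in injected and 170.2 and 180.3 CPM in uninjected low-S100a cells, and 151 and 99.7 CPM in injected and 143 and 138 CPM in uninjected high-S100a cells (1.27, SE 0.25). Abca1 had an interaction of 2.68 (SE 0.50), Dock4, an activator of small GTPases, 3.22 (SE 0.64), and Ctsl, a lysosomal protease, 1.10 (SE 0.23). Without cells with MHC class II UMIs the test called 39 genes, and the 5 had adjusted p of 0.000327 to 0.0168. Without injected 1, injected 2, uninjected 1 or uninjected 2 it called 13, 43, 11 or 89. With possible doublets left out it called 4, and Abca1 and Ctsl came to -0.07 and 0.04. Ptgs2 and Dock4 then had 0.63 and 2.42 (edgeR adjusted p = 0.199 and 0.318), and Ero1a 1.18 (edgeR adjusted p = 0.0411).

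For Il23a the log2 fold change, injected over uninjected, was 1.65 in low-S100a, 1.27 in high-S100a and 1.98 in interferon-class cells, and its interaction with high-S100a cells was 0.47 (SE 0.24, edgeR adjusted p = 0.840). Ccl3 had an interaction of 0.35 (SE 0.14), Ccrl2 of 0.29 (SE 0.22) and Icam1 of 0.26 (SE 0.19), and none passed the test. Tested alone with edgeR, high-S100a cells gave 0 of 4730 genes at an adjusted p under 0.05 (336 unadjusted) and the interferon class 0 of 5594 (178 unadjusted).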

How the data were processed

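Single cells of 4 skin wound libraries were measured, 2 injected and 2 uninjected, grouped by their treatment label. The authors deposited UMI counts per gene and barcode that were made with Cell Ranger 7.2.0, per the file headers, while the submitters' processing notes name version 5.0.1. The genome build of the files is not given in the sources used here. All deposited barcodes were filtered again as described in the report, and Col1a2 was not used here. The members and gene lists were chosen with earlier results of these data known.

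Counts were summed per library and class in Python 3.11.15 (numpy 2.4.6, scipy 1.17.1, pandas 2.3.3). They were tested in R 4.3.3 with edgeR 4.0.16 (quasi-likelihood test, TMM scaling, filterByExpr, Benjamini-Hochberg adjustment over all genes tested, threshold 0.05), and the genes of the rule were in the fit and its adjustment but left out of the counts of tested and called genes. DESeq2 1.42.0 was an alternative. The code was tested on simulated data. Shares were compared by exact permutation of libraries.

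Named genes were the 10 of lowest p in each direction, the 4 of largest absolute fold change in a list with 3 or more tested members (not shown for every list), the 12 highest and 12 lowest against high-S100a cells, the 6 of lowest interaction p, the 10 that went most with Il23a, and the 4 markers, of which 2 genes are not reported here. Cells above the 95th percentile of UMIs in their library, and cells with 2 or more UMIs over the markers of T and NK, B and plasma, mast and basophil, endothelial and mural, or dendritic cells, were left out in an alternative as possible doublets, and no doublet caller was run. Other alternatives were another scaling, no filter on low counts, other limits of the rule, thinning, equal cell numbers, a replicate block and leaving out each library.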

Additional observations from a re-analysis of the deposited data

How the results depend on the processing

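The count of genes past the test between injected and uninjected libraries was 0 with all 4 libraries and stayed 0 with size-factor scaling, 1000 UMIs per cell, the S100a limit at 0.5%, equal cell numbers, thinning, few keratinocyte UMIs, and with possible doublets or cells with MHC class II UMIs left out. It was 34 with DESeq2, 324 (45 higher and 279 lower) without a filter on low counts, and 0 to 173 with 1 library left out. The interaction count was 11 with 1000 UMIs, 39 without cells with MHC class II UMIs, 52 without a filter, 4 without possible doublets and 11 to 89 with 1 library left out. The share of gated neutrophils differed by 3.48 to 15.4 percentage points with 1 library left out, and the share of filtered barcodes by -5.94 to 0.309.

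Libraries of the same replicate number did not deviate together from their group means (correlation of deviations -0.298). With 2 libraries per group both replicates give the same value, so it cannot show whether the libraries were paired. The replicate block gave 0 genes (244 at an unadjusted p under 0.05), and the crossed replicate block 0 (793). The limit on keratinocyte UMIs, the MHC class II cells and the crossed block were chosen after seeing the data.

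Of 64 genes, 57 kept their direction under each alternative in which they could be fitted. With 1 library left out the log2 fold change ran from -0.023 to 0.95 for G0s2, from -0.39 to 0.77 for Il1r2, from -1.76 to 0.018 for Hilpda, from -1.92 to 0.083 for Fabp5 and from -0.14 to 1.39 for Chi3l1, and it turned without uninjected 1 in each and also without injected 1 (-0.39) for Il1r2 (-0.36 without uninjected 1). Il1r2 had -0.054 with few keratinocyte UMIs, -0.097 without possible doublets and -0.041 thinned. Cybb had -0.43 at equal cell numbers. Hmgcs1 had 0.14 at equal cell numbers, 0.13 with few keratinocyte UMIs, 0.19 without possible doublets and 0.044 thinned. The fold change itself (not its log2) of 34 genes, none of them called with all 4 libraries, moved by more than 1.5-fold under some alternative. It did so for 16 without uninjected 2, 11 without uninjected 1, 8 without possible doublets and 8 thinned. The causes were not tested. Of 988 single values, 906 were counted as keeping direction and side of the threshold, 68 passed it under the alternative and 14 turned. The 906 include some DESeq2 values without an adjusted p, whose side of the threshold is not known.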
